A study of Mus musculus with 7 samples.

Results

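Slc25 genes encode the mitochondrial carriers, and their accessible regions in mouse liver were compared between young and aged animals. The 47 protein-coding genes of the GENCODE M21 annotation whose symbol is Slc25a followed by a number were taken, and every ATAC-seq region that overlapped one of these genes, or the 2 kb on either side of it, was counted as a member. This gave 121 of the 55680 regions of the series, which lay at 44 of the 47 genes. The rule itself used annotation only and no measured value, though the members were chosen with earlier results of these data known. ATAC-seq measures how often the Tn5 transposase can insert into chromatin, so that a region with more reads was more accessible. The young group held 3 liver samples from mice aged 3 months and the aged group held 4 liver samples from mice aged 18 months, all from liver tissue of male C57BL/6N animals that were bred in house on a standard diet and, per the methods, showed no liver pathology. The 4 aged samples came from 3 animals, since different liver lobules of 1 animal were entered as separate replicates, and the labels do not say which aged samples these were. Nuclei of whole tissue were used, so every cell type of the liver is in each library. The p-values below treat the 4 aged samples as independent and therefore may be too small.

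Mitochondrial carriers sit in the inner mitochondrial membrane, which is closed to most metabolites, and exchange nucleotides, phosphate, carboxylates, amino acids and cofactors between the matrix and the cytosol. In liver they connect both compartments of the urea cycle, gluconeogenesis, fatty acid oxidation and the export of citrate for lipid synthesis. A few members of the family sit elsewhere, such as Slc25a17 in peroxisomes and Slc25a46 in the outer membrane.

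Of the 47 genes, 40 had an accessible region at a promoter, here within 200 bp of the start of any of their transcripts. This share of 85.1% compares with 59.4% of all 21951 protein-coding genes, which include genes that are silent in liver. Slc25a2, an ornithine carrier, Slc25a31, the adenine nucleotide translocase of testis, and Slc25a54, a relative of the ATP-Mg/phosphate carriers, had no region at all. Slc25a18, a glutamate carrier, Slc25a37, the mitoferrin of red cell precursors, Slc25a41 and Slc25a43 had regions in or near the gene but none at a promoter. Slc25a29 and Slc25a47 shared 1 promoter region, which is counted once. Of the 121 regions, 44 lay at a promoter of the gene and 77 outside, of which 48 were intronic, 11 touched a coding exon, 9 a UTR, 6 lay downstream, 2 touched an exon of a noncoding transcript and 1 lay upstream. Of the 77, 7 lay at the promoter of another gene, for example the region downstream of Slc25a41 at the promoter of Khsrp. No second place in the genome was nearly identical to any of the 121 regions. Of the promoter regions, 12 also lay at the promoter of another gene, among them those of Slc25a15 (1810012K16Rik), Slc25a23 (Crb3), Slc25a24 (Gm19391), Slc25a28 (AC138790.1), Slc25a32 (Dcaf13) and Slc25a40 (Dbf4), and the reads of such neighbours cannot be told apart.

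The libraries held 4474652 to 25461110 counts in regions, and the 121 regions held 4 to 6043 counts per sample, with at least 10 counts in every sample in 113 of them. The tissue was checked against defining markers. All 6 hepatocyte markers had a promoter region, with a summed accessibility of 127 to 161 CPM (read counts scaled to library size) per kb in young and 177 to 197 in aged samples. Of 20 markers of other liver cells, 8 had a promoter region, none of the 4 lymphocyte markers among them. The summed values were 22.1 to 26.1 CPM per kb in young and 12.3 to 20.6 in aged samples for 3 of 4 stellate markers, 17.9 to 19.7 and 14.8 to 23.8 for 2 of 4 endothelial markers, 25.6 to 28.6 and 19.3 to 29.1 for 2 of 4 cholangiocyte markers, and 6.19 to 7.37 and 1.64 to 7.80 for 1 of 4 Kupffer cell markers. The summed values of hepatocyte markers were thus higher and those of stellate markers lower in aged samples. In the edgeR fit 1 of the 6 hepatocyte markers passed as more accessible (all promoters 4.48%). Of the 3 stellate markers 0 passed as less accessible (all promoters 2.06%). The markers were not set against promoters of the same strength, and their part in the Slc25 values below was not tested. In bulk tissue, fewer nuclei of a cell type and less accessibility per nucleus cannot be told apart.

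Promoter accessibility per kb differed widely among the 40 genes with a promoter region. Where a gene had several promoter regions, its strongest was chosen by mean log2 CPM and need not be the highest per kb. At Slc25a25 and Slc25a22 another promoter region was higher per kb. The most accessible promoter was that of Slc25a47, a carrier found mainly in liver, with 53.2, 65.7 and 42.0 CPM per kb in the young samples and 57.4, 60.5, 73.9 and 76.0 in the aged samples. Slc25a28, the mitoferrin that imports iron outside the red cell lineage, followed with 45.8 to 55.7 CPM per kb in young and 62.1 to 76.4 in aged samples. The ranges of both promoters overlapped, so their order is not resolved. At the other end lay Slc25a24, an ATP-Mg/phosphate carrier, with 4.45 to 5.32 CPM per kb in young and 1.88 to 5.17 in aged samples, followed by Slc25a53, whose substrate is not established, and Slc25a4. These 3 also overlapped in range.

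**Figure D1:**
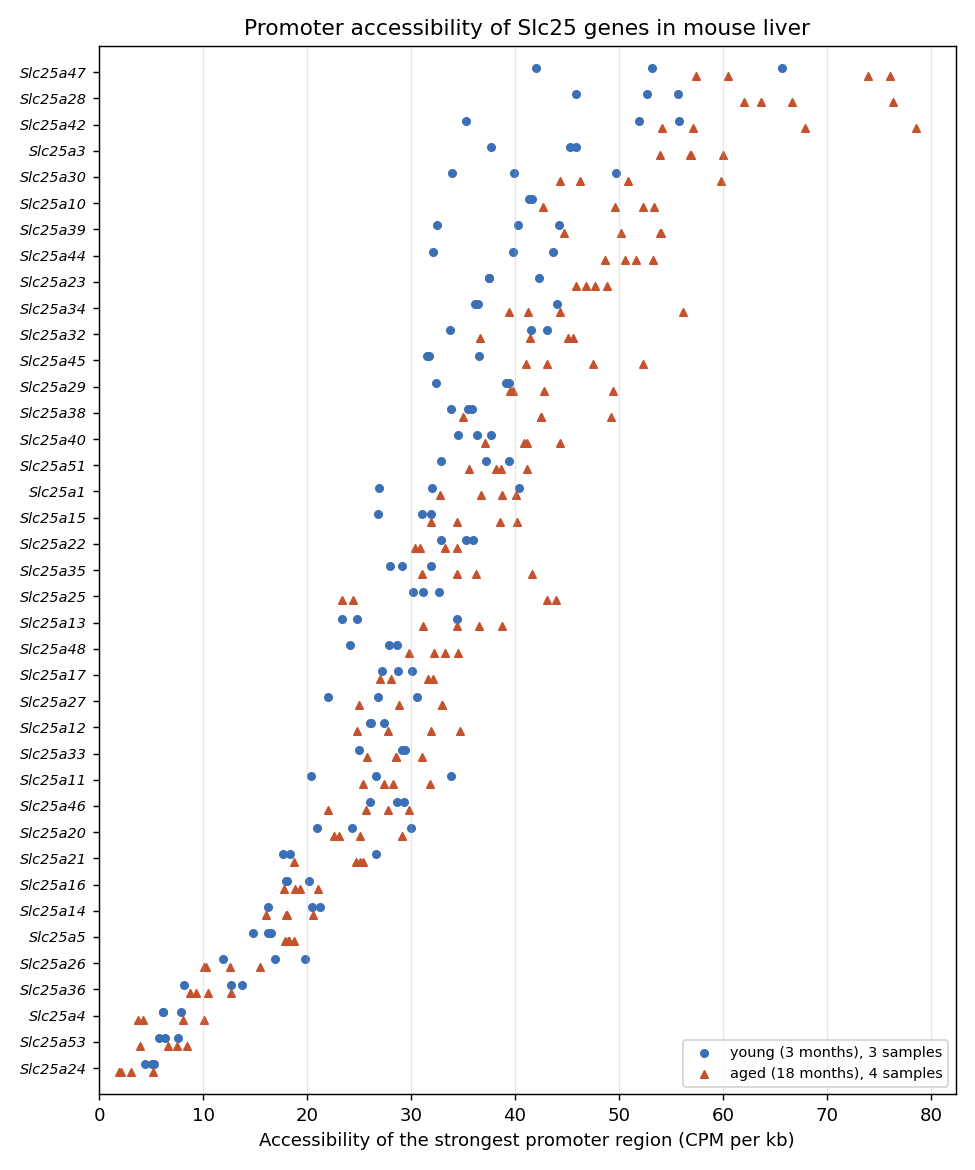
Accessibility of 1 promoter region of each of 39 Slc25 genes, chosen by mean log2 CPM where there are several, in CPM per kb of region, with 1 point for each young (circle) and aged (triangle) sample. Slc25a47 and Slc25a28 lie at the top with means over the 7 samples of 61.2 and 60.4, and Slc25a4, Slc25a53 and Slc25a24 at the bottom with 6.61, 6.60 and 3.88.

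The adenine nucleotide translocases, which exchange ADP for ATP, show the spread within 1 role. Slc25a4, the form of heart and muscle, held 6.13, 7.89 and 6.15 CPM per kb in young samples and 8.09, 4.23, 3.69 and 10.1 in aged samples. Slc25a5, the more widely expressed form, held 16.3, 16.5 and 14.8 in young and 18.7, 18.3, 18.1 and 17.9 in aged samples, above every value of Slc25a4. The RefSeq promoter windows of both genes (250 bases before to 50 after the start, GRCm38.p6) hold the letters TATAA, in capitals below, which 6.52% of the 46 windows of Slc25 genes and 17.5% of all 32851 windows hold on the sense strand. The match lies 26 bases after the RefSeq start of Slc25a5 and 28 bases before its GENCODE gene start, and 5 bases after the RefSeq start of Slc25a4 and 227 after its GENCODE gene start. This search was added after the sequences had been seen. The window of Slc25a4 is chr8:46211013-46211312 on the minus strand and that of Slc25a5 is chrX:36795347-36795646 on the plus strand, both 5′ to 3′.
Slc25a4: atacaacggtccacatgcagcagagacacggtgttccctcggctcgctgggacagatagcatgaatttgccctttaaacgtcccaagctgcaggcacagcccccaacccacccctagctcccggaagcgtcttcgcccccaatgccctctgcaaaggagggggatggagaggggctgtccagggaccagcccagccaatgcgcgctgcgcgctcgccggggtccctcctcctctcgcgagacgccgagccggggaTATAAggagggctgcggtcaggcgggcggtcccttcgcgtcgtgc
Slc25a5: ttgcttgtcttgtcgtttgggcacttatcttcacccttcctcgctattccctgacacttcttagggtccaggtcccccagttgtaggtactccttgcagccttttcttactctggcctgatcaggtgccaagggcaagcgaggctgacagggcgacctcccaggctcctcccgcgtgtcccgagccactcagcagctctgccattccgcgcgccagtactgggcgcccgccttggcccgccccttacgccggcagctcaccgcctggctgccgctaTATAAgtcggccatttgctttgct

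The Slc25 promoters had mostly small positive fold changes of aged against young, though not under offsets on mean abundance. At 37 of the 44 promoter regions the log2 fold change of aged against young was above 0 (84.1%, against 61.1% of all 15422 promoter regions), with a median of 0.19 against 0.09 for all promoters. Under offsets fitted to the mean abundance of the regions this direction was lost, with 21 of 44 above 0 and a median of -0.03 for both the Slc25 promoters and all promoters. Scaled by total counts in regions, 27 of 44 lay above 0, with a median of 0.08 against -0.03 for all promoters. In the edgeR quasi-likelihood fit over all 55680 regions, with Benjamini-Hochberg adjustment at 0.05, 3 of the 121 Slc25 regions passed (2.48%, all regions 5.74%), of which 2 were more accessible in aged liver (1.65%, all regions 2.44%) and 1 was less accessible (0.826%, all regions 3.3%). Of the promoters, 2 of 44 passed as more accessible (4.55%) against 4.48% of all promoter regions, and 0 as less accessible against 2.06%. At an unadjusted p under 0.05 the promoter counts were 14 of 44 more accessible (all promoters 23%) and 0 less accessible (9.13%). DESeq2 called 7 of 44 more accessible, against 10% of all promoters, and 0 less accessible, against 2.22%. With limma voom 5 of 44 were more accessible (all promoters 7.87%) and 0 less accessible (all promoters 2.9%). In edgeR the called share of the Slc25 promoters was close to that of all promoters.

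Stronger regions had higher fold changes. Of the 44 Slc25 promoters, 38 were among the 3 strongest deciles of regions by mean log2 CPM, which hold 63.9% of all promoter regions. In these deciles 35 of 38 lay above 0 (all promoters there, 81.4%) and the median was 0.22 (all, 0.20), and both called promoters lay in them (all promoters there, 6.77%). Of the 6 weaker Slc25 promoters 2 lay above 0, with a median of -0.14. Set against the median of promoters in the same decile, the Slc25 promoters differed by 0.015 at the median. Every aged sample lay above every young one at 13 promoters, all 13 of them in the 3 strongest deciles, where 30.9% of all promoters do so (20.4% of promoters of any strength). No Slc25 promoter had every aged sample below every young one, against 8.88% of all promoters and 2.31% of those in the 3 strongest deciles. Over all 121 regions these counts were 18 above (all regions 10.2%) and 5 below (all regions 11.6%).

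**Figure D2:**
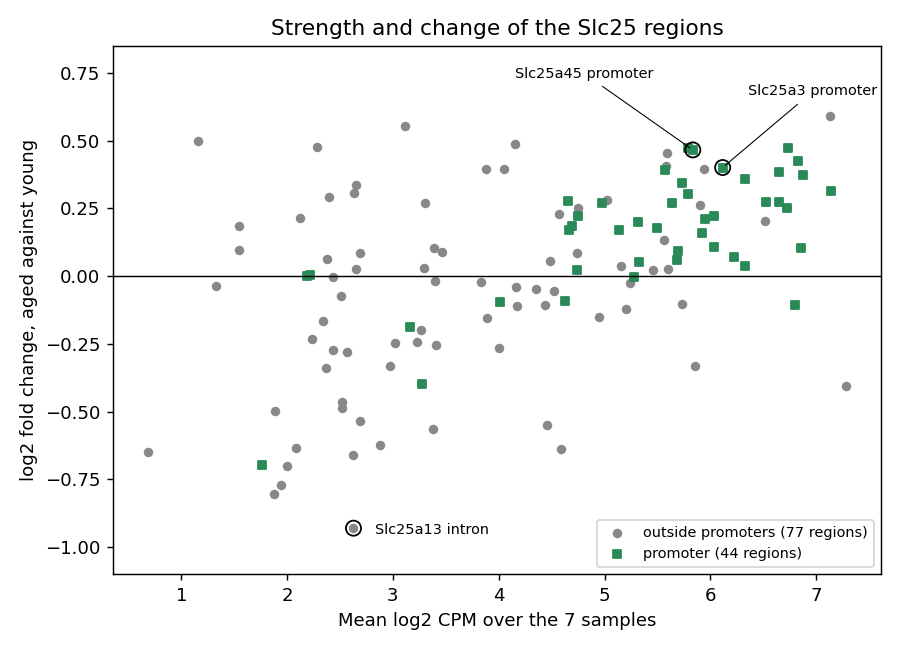
Log2 fold change of aged against young plotted against mean log2 CPM over the 7 samples for 44 promoter regions (squares) and 77 other regions (circles) of Slc25 genes, with circles around the 3 regions past the threshold. At the right, 35 of the 38 promoters of the 3 strongest deciles lie above 0, while the lowest log2 fold change, -0.93, belongs to an intronic region at the lower left. Under offsets on mean abundance the promoter median turns to -0.03.

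Slc25a3 was 1 of the 2 promoters that rose. It encodes the phosphate carrier, which brings phosphate for ATP synthesis and also copper into the matrix. Its only region, chr10:91123298-91124671 in the coordinates of the files (GRCm38), held 62.2, 63.0 and 51.8 CPM in the young samples and 82.5, 78.1, 78.2 and 74.1 in the aged samples. All aged values lay above all young ones, with means of 59.0 ± 6.27 (SD, n = 3) and 78.2 ± 3.44 (SD, n = 4). The log2 fold change was 0.40 (SE 0.11, edgeR adjusted p = 0.048), beside a median of 0.28 for promoters of the same decile. The call was close to the threshold. The adjusted p was 0.108, 0.102 and 0.0862 without young replicates 1, 2 and 3 and 0.129, 0.0621, 0.114 and 0.039 without aged replicates 1, 2, 3 and 4. Over 21 alternatives the log2 fold change stayed between 0.14 and 0.45 and the call was kept in 5. Since 2 aged samples share an animal, each of the 6 pairs of aged samples was also summed into 1 sample, and the call was kept for 1 pair and lost for 5 (adjusted p = 0.0589 to 0.104).

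The RefSeq promoter window of Slc25a3 lies inside this region at chr10:91123918-91124217 on the minus strand. It is shown because it belongs to a called promoter and because it was the only window of the family with the letters of a YY1 motif (AAGATGGCG or its reverse complement CGCCATCTT), in capitals, which start 41 bases after the RefSeq start. Of all windows 1.4% hold these letters. The window is rich in CpG, with an observed-to-expected ratio of 1.01, against a median of 0.641 for the 38 Slc25 windows that overlap a region and 0.384 for all windows.
Slc25a3: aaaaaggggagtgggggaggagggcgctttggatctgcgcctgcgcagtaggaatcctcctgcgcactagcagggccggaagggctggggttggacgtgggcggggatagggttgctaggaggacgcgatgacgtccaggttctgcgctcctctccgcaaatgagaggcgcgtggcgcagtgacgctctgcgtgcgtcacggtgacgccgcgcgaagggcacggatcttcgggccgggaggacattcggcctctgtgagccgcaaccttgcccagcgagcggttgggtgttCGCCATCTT

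Slc25a45 was the other promoter that rose. It is a member of the family whose substrates were long unknown. Its region chr19:5878139-5879563 held 52.0, 44.98 and 45.2 CPM in young samples and 58.5, 61.4, 67.7 and 74.6 in aged samples, again with no overlap. The means were 47.4 ± 4.00 (SD, n = 3) and 65.5 ± 7.14 (SD, n = 4), and the log2 fold change was 0.47 (SE 0.12, edgeR adjusted p = 0.038). The adjusted p was 0.0776, 0.136 and 0.069 without young replicates 1, 2 and 3 and 0.0659, 0.0434, 0.105 and 0.0551 without aged replicates 1, 2, 3 and 4. Over 21 alternatives the log2 fold change was 0.23 to 0.56 and the call was kept in 8. With pairs of aged samples summed, it was kept for 3 of 6 pairs (adjusted p = 0.0313 to 0.0793). The other region of the gene had a log2 fold change of -0.05 and did not pass.

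The called region of Slc25a45 does not overlap the RefSeq promoter window of the gene, chr19:5877572-5877871, but lies within 200 bp of the start of a GENCODE transcript of the gene. Its middle 300 bases (chr19:5878702-5879001, plus strand) hold none of the 8 motifs searched, so no letter is in capitals. They differ from the Slc25a3 window in their low CpG ratio of 0.252.
Slc25a45 region: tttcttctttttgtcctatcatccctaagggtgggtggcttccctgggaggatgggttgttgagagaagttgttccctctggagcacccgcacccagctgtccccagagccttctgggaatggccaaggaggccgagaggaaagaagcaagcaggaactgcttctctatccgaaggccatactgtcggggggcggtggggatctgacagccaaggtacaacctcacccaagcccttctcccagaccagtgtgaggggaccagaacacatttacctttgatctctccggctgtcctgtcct

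At their promoters the carriers of the urea cycle and of nitrogen transport gave small differences that did not pass the test in the reported fit. An intronic region of Slc25a13 did pass and is described below. Slc25a15, which exchanges ornithine for citrulline, held 93.8, 96.2 and 80.9 CPM at its promoter in young samples and 104, 96.3, 116 and 121 in aged samples. Each aged sample lay above each young one, by as little as 96.3 against 96.2 (log2 fold change 0.27, edgeR adjusted p = 0.17), and the promoter passed in 1 of 21 alternatives (0.0368). Slc25a13, the aspartate/glutamate carrier of liver called citrin, held 41.7, 57.8 and 39.3 CPM in young and 57.8, 52.4, 61.4 and 65.2 in aged samples (0.34, adjusted p = 0.15), and here the groups overlapped. Slc25a12, the other aspartate/glutamate carrier, had a log2 fold change of 0.17. The strongest promoter of Slc25a22, a glutamate carrier, held 115.9 ± 5.41 CPM in young (SD, n = 3) and 107.6 ± 6.43 in aged samples (SD, n = 4), and its log2 fold change was -0.11 (adjusted p = 0.56). Under offsets on mean abundance this promoter passed as less accessible, at -0.45, and was the only Slc25 region to pass there.

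The carboxylate carriers did not pass either. Slc25a10, the dicarboxylate carrier, held between 95.5 and 96.2 CPM in the 3 young samples and 98.7, 115, 123 and 121 in the aged samples (log2 fold change 0.25, edgeR adjusted p = 0.17). The young samples were close together and all lay below the aged ones. The region of Slc25a10 also covers the promoter of Gm11788. Slc25a1, which exports citrate, held 56.9 ± 11.7 CPM (SD, n = 3) and 63.7 ± 5.44 (SD, n = 4), with a log2 fold change of 0.16. Slc25a11, the oxoglutarate carrier, had a log2 fold change of 0.06 and Slc25a21, the oxodicarboxylate carrier, one of 0.19. All 4 carriers of this group lay above 0, but only 1 of 4 under offsets on mean abundance and 3 of 4 with total counts.

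Among nucleotide and phosphate carriers the promoters differed in pattern. Slc25a5 stood at 0.20 in log2 fold change (edgeR adjusted p = 0.27), with the 4 aged samples above the 3 young ones. Slc25a4 had a log2 fold change of 0.00 (SE 0.31), with aged replicates 1 and 4 above and aged replicates 2 and 3 below all young values. Slc25a24 had the lowest fold change of any Slc25 promoter, at 4.72, 4.54 and 3.95 CPM in young and 1.67, 2.75, 1.87 and 4.58 in aged samples (log2 fold change -0.70, SE 0.34, adjusted p = 0.22). Aged replicate 4 lay within the young range there, and the region held 8 to 120 counts per sample. It passed in 1 of 20 alternatives (adjusted p = 0.0386). Slc25a23, another ATP-Mg/phosphate carrier, went the other way, with 82.4 ± 5.91 CPM (SD, n = 3) and 99.7 ± 2.67 (SD, n = 4) and no overlap (0.27, adjusted p = 0.12). Of the 3 ATP-Mg/phosphate carriers with a promoter, 2 lay above 0 at the strongest region, but 1 with total counts and 0 under offsets on mean abundance.

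**Figure D3:**
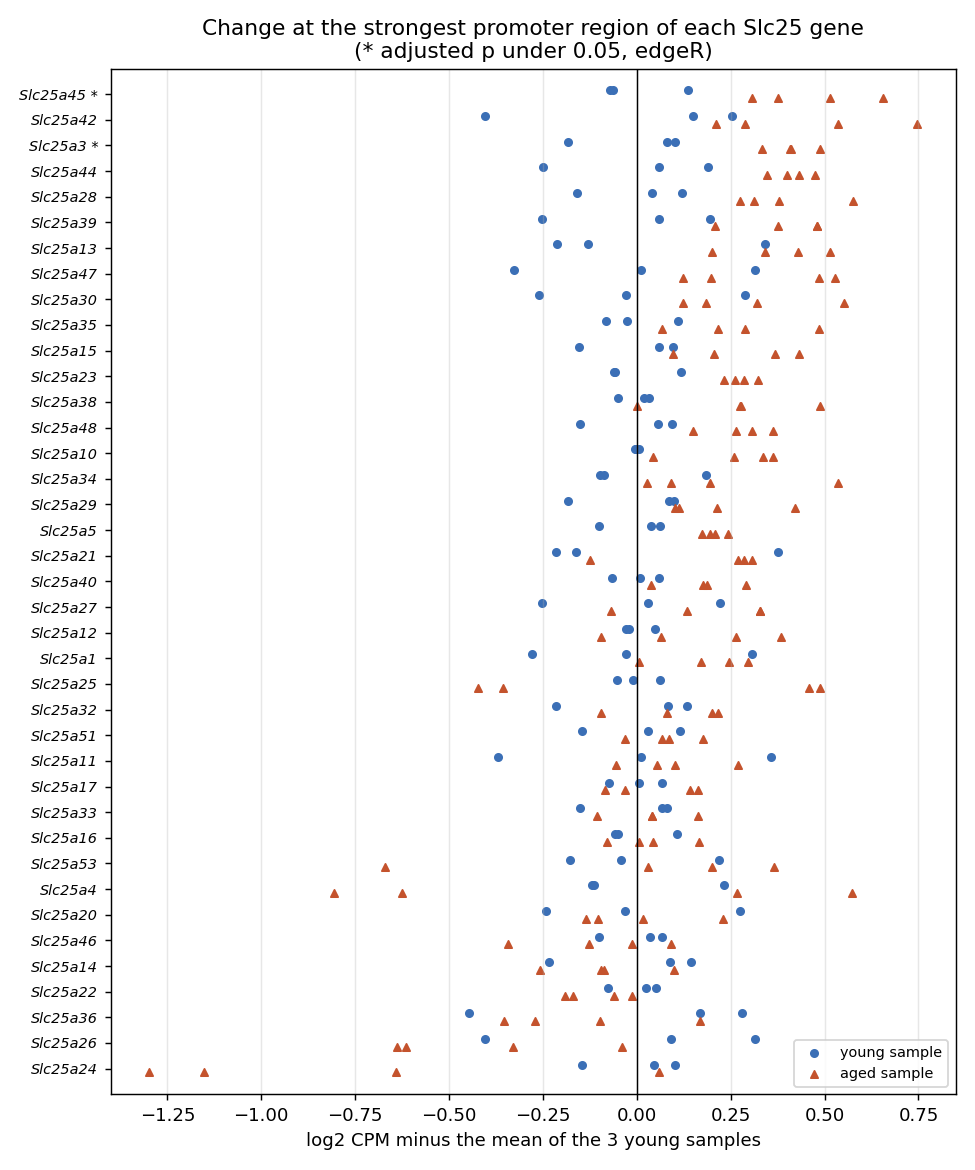
Log2 CPM of each young (circle) and aged (triangle) sample minus the mean of the 3 young samples, at the strongest promoter region of each of 39 Slc25 genes, ordered by the log2 fold change of the fit. All 4 aged samples lie to the left at Slc25a22 and Slc25a26, 3 of 4 do so at Slc25a14, Slc25a24, Slc25a36 and Slc25a46, and the aged samples of Slc25a25 and Slc25a4 split to both sides. Under offsets on mean abundance 21 of 44 promoter regions lie above 0.

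Slc25a25, a calcium-regulated ATP-Mg/phosphate carrier, had 3 promoter regions, and the aged libraries separated at them. The strongest, chr2:32417171-32420802, held 113, 109.6 and 119 CPM in young samples and 88.8, 84.9, 156 and 159.7 in aged samples. Aged replicates 1 and 2 lay below and aged replicates 3 and 4 above all young values, and the log2 fold change was 0.10 (SE 0.20, edgeR adjusted p = 0.79). The middle one, chr2:32423487-32425114, held 75.2, 75.1 and 60.8 CPM in young and 73.0, 70.02, 110.2 and 109.8 in aged samples (0.36, adjusted p = 0.20), so that the same aged replicates were high. At the most upstream one, chr2:32450920-32453019, aged replicate 2 alone stayed near the young samples, with 92.5, 88.7 and 85.0 CPM in young and 129, 93.6, 134 and 136 in aged samples. Its log2 fold change of 0.47 (SE 0.13, adjusted p = 0.051) just missed the threshold, and it passed in 7 of 21 alternatives (adjusted p = 0.0136 at the lowest).

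The RefSeq windows inside the last 2 of these regions differ in sequence and are shown for that reason. The window of the middle region (chr2:32424017-32424316, minus strand) has a CpG ratio of 0.30 and holds the letters of a CREB motif (TGACGTCA, which reads the same on both strands) 150 bases before the start. The window of the upstream region (chr2:32451421-32451720, minus strand) has a ratio of 0.860 and holds the letters of an SP motif (GGGGCGGGG or its reverse complement) 5 bases before the start. The matches are in capitals. CREB letters stand in 2 of 46 Slc25 windows (4.35%, all windows 1.79%), the other being that of Slc25a36, and SP letters in 6 (13%, all windows 11.4%).
Slc25a25 middle: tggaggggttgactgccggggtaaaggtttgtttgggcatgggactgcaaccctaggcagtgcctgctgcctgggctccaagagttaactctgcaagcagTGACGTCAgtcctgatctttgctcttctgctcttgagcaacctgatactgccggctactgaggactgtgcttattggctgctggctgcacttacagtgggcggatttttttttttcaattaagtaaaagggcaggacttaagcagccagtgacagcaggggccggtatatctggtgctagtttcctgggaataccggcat
Slc25a25 upstream: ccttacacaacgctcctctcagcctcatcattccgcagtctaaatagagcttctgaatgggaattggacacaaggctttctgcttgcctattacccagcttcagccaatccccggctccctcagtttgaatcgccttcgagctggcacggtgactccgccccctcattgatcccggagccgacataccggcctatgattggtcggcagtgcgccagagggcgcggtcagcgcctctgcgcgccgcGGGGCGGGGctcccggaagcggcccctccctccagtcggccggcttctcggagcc

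In the reported edgeR fit no promoter passed among the carriers of coenzymes, vitamins and nucleotides or those of iron and glutathione. Slc25a42, which takes coenzyme A into the matrix, held 105.8, 113.8 and 72.0 CPM in young and 116, 110.4, 138 and 160.1 in aged samples (log2 fold change 0.43, edgeR adjusted p = 0.13), with aged replicate 2 within the young range. Slc25a28 held 93.3, 88.2 and 76.8 CPM in young and 107, 104, 112 and 128 in aged samples (0.38, adjusted p = 0.066). All 4 aged samples of Slc25a28 were higher. Over 21 alternatives Slc25a28 passed in 4 (adjusted p = 0.0222 at the lowest) and Slc25a42 in 1 (0.0421). Slc25a39, which imports glutathione, stood at 0.38 (adjusted p = 0.088) with no overlap, and its relative Slc25a40 one of 0.18. Slc25a51, which imports NAD, Slc25a32, which carries folate and flavin, and Slc25a33, a pyrimidine nucleotide carrier, lay between 0.04 and 0.09. Of the 8 carriers of coenzymes, vitamins and nucleotides 7 lay above 0 with a median of 0.06, but 2 of 8 under offsets on mean abundance and with total counts. All 3 promoters of the iron and glutathione group lay above 0, and 2 of 3 under offsets on mean abundance.

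For the remaining roles, Slc25a20, the carnitine/acylcarnitine carrier of fatty acid oxidation, had a promoter log2 fold change of 0.00 (SE 0.14), with 39.0 ± 7.14 CPM in young (SD, n = 3) and 38.8 ± 4.62 in aged samples (SD, n = 4). Slc25a44, which imports branched-chain amino acids, had 5 regions, all above 0 also with total counts and with offsets on mean abundance or GC content, with log2 fold changes from 0.25 to 0.45. The region at chr3:88409063-88410982, which touches a UTR, also lies at the promoter of Pmf1. The Slc25a44 promoter held 41.8, 45.8 and 33.7 CPM in young and 53.1, 55.9, 51.1 and 54.2 in aged samples (0.39, edgeR adjusted p = 0.069), with no overlap. The promoters with the next lowest values were those of Slc25a26, which imports S-adenosylmethionine (-0.40, adjusted p = 0.30), and Slc25a36, a pyrimidine nucleotide carrier (-0.19, adjusted p = 0.65). Slc25a47 stood at 0.31 in log2 fold change at its strongest promoter (adjusted p = 0.22) and -0.41 at a region over its coding exons, which held up to 228 CPM and overlapped between groups (adjusted p = 0.36).

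The rest of the family spread around small values. Slc25a38, which is needed for glycine import in heme synthesis, had a promoter log2 fold change of 0.27 (edgeR adjusted p = 0.22). The relatives of uncoupling proteins lay at -0.10 (Slc25a14), 0.17 (Slc25a27) and 0.30 (Slc25a30). Slc25a34, Slc25a35 and Slc25a48, whose substrates are little known, lay at 0.22, 0.28 and 0.27, and Slc25a53 at 0.00. Slc25a46, which takes part in mitochondrial dynamics, lay at -0.09, Slc25a16 at 0.02 and the peroxisomal Slc25a17 at 0.05. The promoter that Slc25a29, a carrier of basic amino acids, shares with Slc25a47 lay at 0.21 (adjusted p = 0.30).

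Outside promoters the Slc25 regions had no common direction. Of 77 regions 34 lay above 0 (44.2%, all other regions 41%), with a median log2 fold change of -0.04, against -0.09 for all regions outside promoters. The sets differ, since 7 of the 77 lie at the promoter of another gene. The 40258 other regions of the series used for comparison lie at no promoter of any gene. The Slc25 regions were stronger than others, with 29 of 77 in the 3 strongest deciles (17% of all regions outside promoters), and set against the median of such regions in the same decile they lay lower, by -0.11 at the median. The sign of the median of -0.04 was not stable, since it was 0.02 under offsets on GC content and 0.11 without young replicate 3. The difference within deciles was computed for the reported fit only. In the edgeR fit 1 passed as less accessible (1.3%, all other regions 3.78%) and 0 as more accessible (all other regions 1.66%). At an unadjusted p under 0.05 there were 9 more accessible (all other regions 7.61%) and 9 less accessible (14.1%) of 77. DESeq2 called 4 of 77 more accessible, against 3.02% of all other regions, and 1 less accessible, against 3.94%. With limma voom 0 of 77 were more accessible (all other regions 2.44%) and 2 less accessible (all other regions 4.81%). Every aged sample lay above every young one at 5 regions (all other regions 6.26%) and below at 5 (12.7%).

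The region that fell lay in an intron of Slc25a13, at chr6:6170330-6171393. It held 7.41, 11.2 and 7.07 CPM in young samples and 3.87, 5.30, 5.37 and 4.20 in aged samples, with means of 8.57 ± 2.31 (SD, n = 3) and 4.68 ± 0.76 (SD, n = 4). All aged values were below all young ones (log2 fold change -0.93, SE 0.25, edgeR adjusted p = 0.043), on 23 to 297 counts per sample. The median for regions outside promoters in the same decile was -0.17. The adjusted p was 0.0913 and 0.224 without young replicates 1 and 2, 0.123, 0.0508 and 0.086 without aged replicates 1, 2 and 3, and under 0.05 without young replicate 3 or aged replicate 4. Over 21 alternatives the log2 fold change was -1.04 to -0.66 and the call was kept in 8. With pairs of aged samples summed, it was kept for 1 pair and lost for 5 (adjusted p = 0.054 to 0.0801).

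The sequence of this region is a tandem repeat. The word ACACTCACTGGT stands in it 36 times, from base 38 to base 1058 of its 1064 bases, with a median spacing of 25 bases, although 0% of it is masked as repeat in the genome. The middle 300 bases (chr6:6170712-6171011, plus strand) are shown with the word in capitals. Only 1 other region of the family, in an intron of Slc25a15, has a word of 12 bases in at least 5 copies at a median spacing of at least 10 bases, with 8 copies and a log2 fold change of -0.55 (adjusted p = 0.096). How reads were placed among the copies was not tested.
Slc25a13 intron: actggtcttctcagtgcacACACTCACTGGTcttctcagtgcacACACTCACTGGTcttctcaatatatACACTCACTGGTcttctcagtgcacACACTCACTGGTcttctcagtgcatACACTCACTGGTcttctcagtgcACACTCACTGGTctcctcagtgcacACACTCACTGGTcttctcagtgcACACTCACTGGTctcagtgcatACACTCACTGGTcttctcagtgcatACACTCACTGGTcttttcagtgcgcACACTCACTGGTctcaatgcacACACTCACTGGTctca

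Slc25a13 is a gene of 175956 bases and held more regions than any other member, 16 in all. Beside the promoter, 15 were intronic. Of these, the 3 in the strongest deciles had log2 fold changes with a median of 0.08, and the 12 weaker ones a median of -0.35, with 3 of 12 above 0. All regions outside promoters had medians of 0.11 to 0.27 in the deciles of the 3. In the deciles of the 12 these medians were -0.27 to 0.03. The intronic region at chr6:6184877-6186047 held 35.8, 49.2 and 36.8 CPM in young and 50.1, 60.2, 60.0 and 48.0 in aged samples (0.41, edgeR adjusted p = 0.095). The regions at chr6:6166281-6167201 (-0.80, adjusted p = 0.14) and chr6:6194985-6195910 (-0.66, adjusted p = 0.099) had every aged sample below every young one. Values of both signs stood within the same gene.

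**Figure D4:**
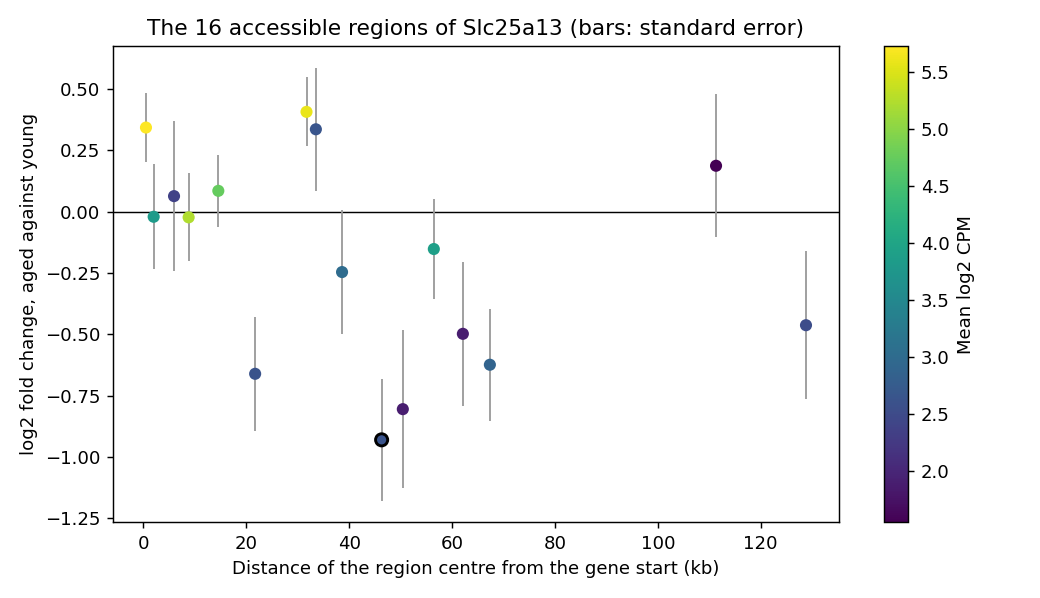
Log2 fold change of aged against young, with its standard error as a bar, at the 16 regions of Slc25a13 against the distance of the region's centre from the gene start in kb, coloured by mean log2 CPM. The promoter at the left and the strongest intronic region lie at 0.34 and 0.41, and the region past the threshold, with a black outline, at -0.93.

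The other large values outside promoters did not pass in the reported fit. An intron of Slc25a18 held 4.998, 4.23 and 5.92 CPM in young and 2.72, 2.75, 2.80 and 3.31 in aged samples (log2 fold change -0.77, edgeR adjusted p = 0.09), with no overlap. The region downstream of Slc25a41, at the promoter of Khsrp, had the highest fold change of the family, at 0.59 in log2 fold change (adjusted p = 0.097). It held 135.5, 133.6 and 71.2 CPM in young and 179.6, 124, 178.8 and 204 in aged samples, where young replicate 3 was low and aged replicate 2 lay within the young range. It passed in 3 of 21 alternatives (adjusted p = 0.0468 at the lowest). An intron of Slc25a21 went from 7.03, 7.11 and 6.41 CPM to 9.31, 11.4, 7.94 and 11.7 (0.55, adjusted p = 0.12), and an intron of Slc25a43, on 7 to 52 counts, had a value of 0.50 (adjusted p = 0.38).

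Other transporters of the mitochondrial membranes gave values close to those of the Slc25 promoters. The list holds 25 genes: uncoupling proteins and other relatives of the family under other symbols, the pyruvate carrier, sideroflexins, voltage-dependent anion channels, the calcium uniporter and others. Of the 23 with a promoter region, 21 lay above 0, with a median of 0.21, but 12 of 23 under offsets on mean abundance, where the median was 0.00. Mpc2, a subunit of the pyruvate carrier (0.46, edgeR adjusted p = 0.048), and Abcb8, an ABC transporter of the inner membrane (0.48, adjusted p = 0.029), rose, and 0 fell. These were 2 of 23, beside 4.48% of all promoters more accessible. At an unadjusted p under 0.05 there were 9 more (all promoters 23%) and 0 less accessible. Of the 23, DESeq2 called 4 more accessible (all promoters 10%) and limma voom 3 (all promoters 7.87%), with 0 less accessible in either. Ucp1 and Ucp3, the uncoupling proteins of brown fat and muscle, had no promoter region, and Ucp2 had a value of -0.33 (adjusted p = 0.34).

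RefSeq windows were at hand for 36 of the 47 genes (46 windows, 38 of which overlap a region). Of the 8 motifs searched, SP letters were the most frequent, in 13% of these windows (all windows 11.4%). CREB letters stood in 4.35% (all windows 1.79%) and YY1 letters in 2.17% (all windows 1.4%). Exact letters on both strands of NRF1 (CGCATGCG), ESRRA (TCAAGGTCA) and HNF4A (CAAAGTCCA) stood in none, against 1.87%, 0.423% and 0.475% of all windows. GABPA letters (CCGGAAGT, all windows 3.89%) stood in 1, that of Slc25a20, and USF letters (TCACGTGA, all windows 0.974%) in 1, that of Slc25a36. The 38 windows that overlap a region had a median GC content of 59.8%, against 53.7% for the 8 that do not and 52.7% for all windows.

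Scaling by total counts in regions moved the median of all regions by -0.12 in log2. Such a scaling shifts all regions alike, so the Slc25 promoters lay 0.23 above that median by construction under this scaling as under TMM. Offsets on mean abundance, which remove any trend with strength, left them at -0.04 relative to all regions. Leaving out single samples gave promoter medians from 0.17 to 0.23.

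**Figure D5:**
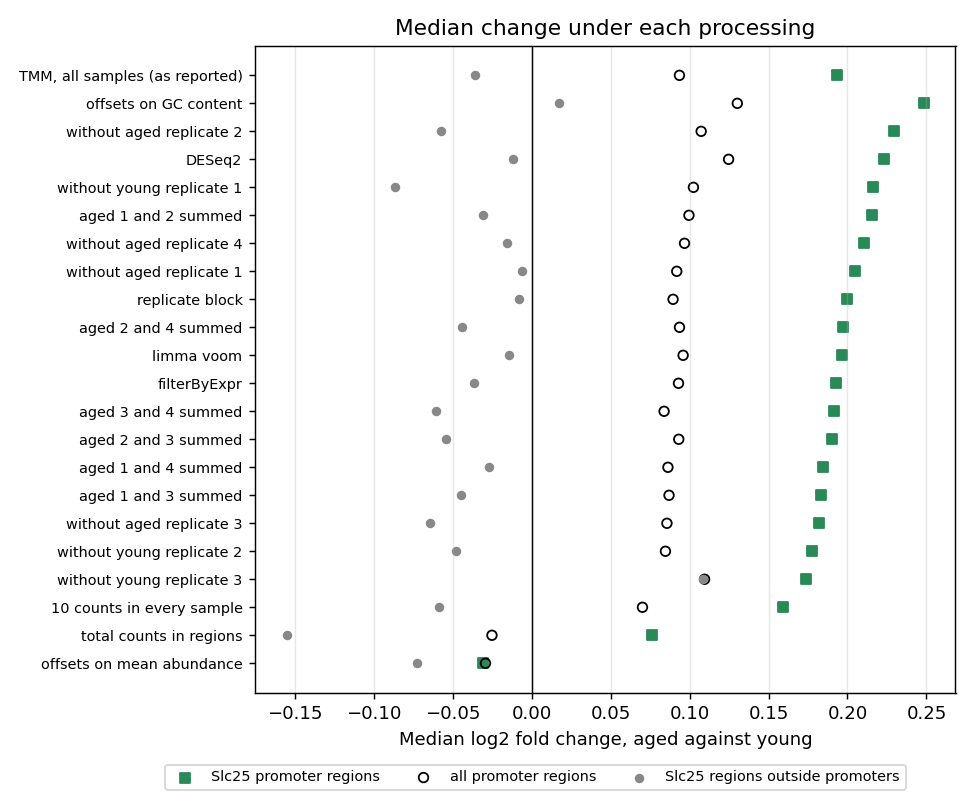
Median log2 fold change of aged against young under the reported fit (top) and 21 alternatives for the 44 Slc25 promoter regions (squares), all promoter regions (open circles) and the 77 Slc25 regions outside promoters (filled circles). The squares range from 0.25 under offsets on GC content to -0.03 under offsets on mean abundance, where they meet the median of all promoters.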

How the data were processed

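The authors deposited raw counts of ATAC-seq reads in 55680 regions for the 7 samples. According to the methods and the submitters' processing notes, reads were trimmed (cutadapt 1.13), aligned to GRCm38 (Bowtie2 2.4.1), filtered at a mapping quality over 10 and for duplicates, and counted (featureCounts) in regions with a MACS2 2.2.7 peak in at least 2 libraries. All columns matched a sample, leaving 0 unused. Coordinates are printed as in the files.

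Regions were tested with edgeR 4.0.16 in R 4.3.3 (TMM, quasi-likelihood test, age only, Benjamini-Hochberg adjustment over all regions, threshold 0.05, no filter). CPM use TMM library sizes, and log2 CPM a prior count of 2. The edgeR script was tested on simulated counts of independent samples, with changes larger than those called here. That test therefore does not cover calls of this size or aged samples that share an animal. Alternatives were DESeq2 1.42.0, limma 3.58.1 (voom), other scalings (loess span 0.3), filters, left-out samples, summed aged pairs and a replicate block. Near-identical copies (80% cover, 95% identity) were sought with minimap2 2.31, and samtools 1.23.1 read the genome. Promoter windows are from RefSeq (GRCm38.p6). Counts of each pair of libraries differed by more than sampling noise.

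The members, gene lists and motifs were chosen with earlier results of these data known. Named are all called regions, 12 liver carriers, the 3 largest changes each way at and outside promoters, the 3 most and 3 least accessible promoters, and genes with no region. Others were chosen after their values were seen. Values of 1 member gene are not reported here. It is left out of the plots by gene and counted in the totals.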

Additional observations from a re-analysis of the deposited data

Results flagged for a closer look

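Among 26 named regions, the 4 aged samples were checked for a single sample far from the others, which chance gives in about 1 of 20 groups, and 2 regions showed one. At the most upstream promoter of Slc25a25, aged replicate 2 lay at 6.55 log2 CPM, below the other aged samples and close to the young ones. In the intron of Slc25a18, aged replicate 4 lay at 1.81 log2 CPM, above the other aged samples and still below every young sample.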

How the results depend on the processing

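The counts of called Slc25 regions (2 more and 1 less accessible in the reported fit) moved with most settings. They were 11 and 1 with DESeq2, 15 and 1 with offsets on GC content, 5 and 2 with limma voom, 0 and 3 with total counts, 0 and 1 with offsets on mean abundance, 1 and 1 with filterByExpr, 0 and 0 with at least 10 counts in every sample and at a threshold of 0.01. Summing aged pairs gave 3 and 0 (1 with 2), 0 and 0 (1 with 3), 1 and 1 (1 with 4), 1 and 0 (2 with 3), 6 and 1 (2 with 4) and 0 and 1 (3 with 4). Leaving out 1 sample gave 0 to 3 more and 0 to 3 less accessible, with 0 and 0 without young replicate 1 or 2 or aged replicate 1, 0 and 1 without young replicate 3 or aged replicate 3, 3 and 0 without aged replicate 2, and 1 and 3 without aged replicate 4. The calls over all regions moved too, from 3198 to 4691 with DESeq2, 5540 with offsets on GC content, 4580 with limma voom, 3474 with total counts, 658 with offsets on mean abundance, 962 to 4742 with aged pairs summed and 188 to 4230 with 1 sample left out. The promoter median turned to -0.0306 with offsets on mean abundance and was 0.0759 with total counts, and 0.1735 to 0.2295 with 1 sample left out. The median outside promoters was 0.0175 with offsets on GC content and -0.1549 with total counts, and -0.0862 to 0.1082 with 1 sample left out, above 0 only without young replicate 3. The cause of these shifts was not tested. Deviations of samples with the same replicate number had correlations of -0.119, 0.0565 and 0.0298, within the range of the other pairs (-0.151 to 0.232). With so few samples this cannot decide whether the numbers pair samples. A replicate block gave 2 more and 2 less accessible regions, of which 0 were among those of the reported fit. The gene body alone and promoters of ±1000 bp changed no direction. Depth limits the weak regions, where single samples held as few as 4 counts.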
